A study of Mus musculus with 8 samples.

Results

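The later-numbered murine miRs from miR-1892 to miR-1983 and from miR-3057 to miR-3113 were examined in early fracture callus. Membership was set by name, as every miR on the array with a number in either range, leaving out miR-3070, miR-3071, miR-3072 and miR-3096-5p. This gave 186 of the 1079 murine miRs on the array, 77 from the lower and 109 from the upper range. Few of these miRs gave a signal in callus. In all 8 specimens 24 of the 186 members were detected (12.9%), against 286 of the 893 other murine miRs (32.0%), while 141 members (75.8%) were detected in none. Of the 24, 20 had a lower mean in the Nonunion than in the Union group, but only miR-1894-3p had an unadjusted p under 0.05 and none passed after adjustment. Without 2 Union specimens, P17 and P18, left out after their high signals were seen, 9 of the 24 were lower and 15 higher. Of all murine miRs tested, 40.6% were lower in the Nonunion group with all arrays and 41.6% without P17 and P18.

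A miR is cut from a hairpin-shaped precursor, whose stem yields an arm from its 5′ side (5p) and an arm from its 3′ side (3p). Usually 1 of these arms is loaded into the silencing complex and accumulates, while its partner is degraded. The seed, bases 2 to 8 of the mature miR, pairs with target transcripts. Many miRs with high catalogue numbers were entered from deep sequencing of small RNA, and most have no established function in bone.

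Callus was taken from adult male and female CD-1 mice 7 days after a femoral osteotomy held by an intramedullary pin and a clip. The Nonunion group (P13 to P16, n = 4) had a gap of 1.8 mm with the periosteum stripped next to it, and the Union group (P17 to P20, n = 4) a gap of 0.25 mm with the periosteum left in place. The groups thus differed in gap size and in periosteum together, and at this day their names refer to the outcome that each gap leads to and not to one seen in these mice. RNA of each mouse was labelled with 1 dye and hybridized to 1 array. The signal of a miR was merged over its 40 spots by the scanner software, which also called it detected or not and set undetected miRs to 0.1 units.

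Several measures of the arrays moved with the groups or set single arrays apart. Negative control spots had a net signal of 52.7 ± 1.82 units in the Nonunion and of 47.2 ± 0.445 units in the Union group (SD, n = 4 each), without overlap. The two-sided exact permutation p was 0.0286, which is the lowest this design can reach. The slide held the Nonunion arrays in 1 row and the Union arrays in the other, and row and group cannot be told apart. Marker miRs of cartilage (4 of 4 detected) had a mean normalized log2 signal of 6.47 to 8.69 in the Nonunion and of 5.67 to 6.93 in the Union group, with the 2 lowest values on P17 and P18 (exact permutation test, p = 0.0571). Marker miRs of red blood cells (3 of the 3 on the array detected) ranged from 7.04 to 8.61 and from 7.21 to 9.19, highest on P17 (exact permutation test, p = 0.629). Those of myeloid cells (3 of 4) ranged from 9.53 to 10.12 and from 10.01 to 12.0 (p = 0.143), and those of skeletal muscle (4 of 6) from 12.3 to 13.6 and from 13.1 to 13.5 (p = 0.8, exact permutation tests). The part of cell composition, array position and background signal in the values below was not tested, and in whole callus fewer cells of a type and less RNA per cell cannot be told apart.

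The sequences shown are those of members on which the results turn. They were found in RefSeq (GRCm38.p6) for 149 of the 186 members and for 19 of the 24 detected on all arrays. The array design used another assembly (mm9), so that the positions below belong to GRCm38.p6 alone. Seeds are in capitals. The first group holds members with their 2 highest signals on P17 and P18.
miR-1894-3p: gCAAGGGAgagggugaagggag, chr17:35917938-35917959, plus strand
miR-1892: aUUUGGGGacgggagggaggau, chr12:54645943-54645964, minus strand
miR-1895: cCCCCGAGgaggacgaggagga, chr3:134240515-134240536, minus strand
miR-1982-5p: uUGGGAGGguccuggggagg, chr10:80828808-80828827, plus strand
miR-3095-3p: uGGACACUggagagagagcuuuu, chr4:58441023-58441045, minus strand
miR-3091-5p: cAUGGGUCugguugggcccgc, chr2:180257547-180257567, plus strand
miR-3102-5p: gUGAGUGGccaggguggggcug, chr7:100882388-100882409, minus strand
miR-3102-5p.2-5p: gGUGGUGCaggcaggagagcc, chr7:100882367-100882387, minus strand

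The second group holds members with another order of the arrays.
miR-1897-3p: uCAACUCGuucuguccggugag, chr3:34638511-34638532, plus strand
miR-3069-3p: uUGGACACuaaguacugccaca, chr12:105031078-105031099, minus strand

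No seed was shared among the 19 sequences, and none of the 19 shared its seed with another murine miR of the array for which RefSeq holds a sequence. Their loci were scattered, and 14 of the 19 lay within the span of a protein-coding gene. MiR-1894-3p lies within Ppp1r10, a regulatory subunit of protein phosphatase 1, and miR-1895 within Cxxc4, an inhibitor of Wnt signalling. MiR-1982-5p lies within Oaz1, which restrains polyamine synthesis, miR-3091-5p within the ribosomal protein gene Rps21, and miR-3095-3p within Lpar1, a receptor of lysophosphatidic acid. The span of Meg3, an imprinted long non-coding RNA, holds miR-1906, and that of the long non-coding RNA Sox2ot holds miR-1897-3p. Both arms of miR-3102 detected on all arrays lie end to end on the 5′ side of 1 hairpin.

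First, the share of detected members was compared between the groups. On the Nonunion arrays P13 to P16, 34, 33, 30 and 24 members were detected (18.3%, 17.7%, 16.1% and 12.9% of 186). On the Union arrays P17 to P20, the numbers were 41, 43, 32 and 29 (22.0%, 23.1%, 17.2% and 15.6%). P17 and P18 were the highest, whereas P19 and P20 lay within the range of the Nonunion group. The means of 30.25 ± 4.5 and 36.25 ± 6.80 (SD, n = 4) lay within the spread between arrays (exact permutation test, two-sided, p = 0.257). Of the other murine miRs, between 300 and 332 were detected on the Nonunion and between 329 and 350 on the Union arrays (exact permutation test, p = 0.0857).

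The summed signal of the members had the same shape. It was 2995, 3311, 2153 and 1654 units on P13 to P16 and 5401, 6393, 2309 and 2445 units on P17 to P20. The difference of −0.62 on the log2 scale was within the spread between arrays (exact permutation test, p = 0.229). Without P17 and P18 it was 0.04 (exact permutation test, p = 1). The members took 0.901% to 1.19% of the summed signal of all murine miRs in the Nonunion group. In the Union group they took 1.50% on P17 and 2.16% on P18, but 1.01% on P19 and 0.917% on P20 (exact permutation test of the share, p = 0.314). The summed signal of the other murine miRs was also highest on P17 and P18, with 354662 and 289205 units, and ranged from 181935 to 276030 units on the remaining arrays.

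**Figure D1:**
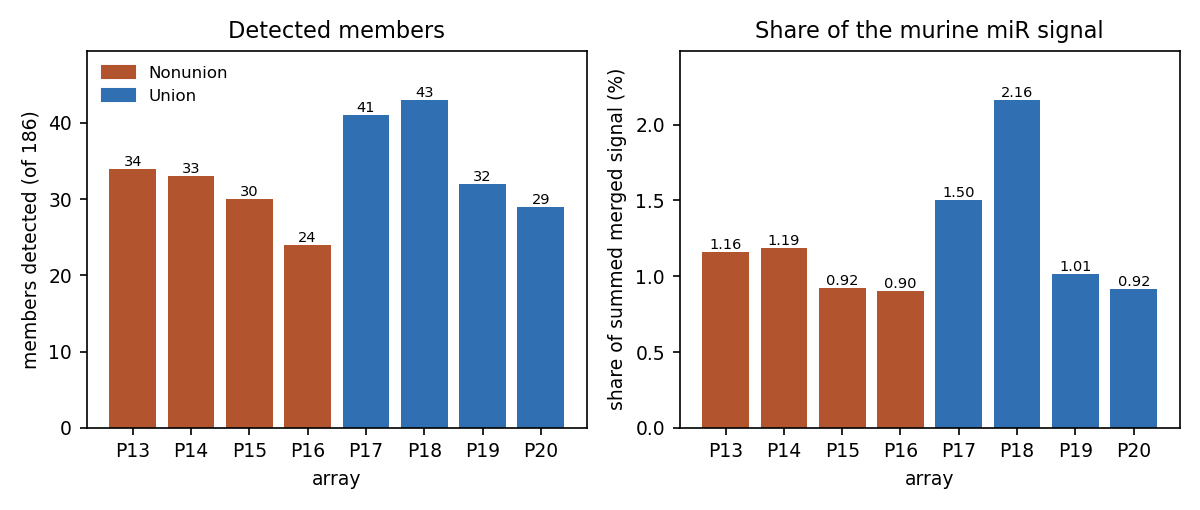
Number of members detected on each array, of 186 (left), and their share of the summed merged signal of all murine miRs in percent (right). Each bar is 1 array, coloured by group. The bars of P17 and P18 are the highest in both panels, and those of P19 and P20 lie close to the Nonunion arrays.

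For the comparison of single miRs, log2 values of the merged signals were quantile normalized, and limma was run on the 310 murine miRs detected on every array. An unadjusted p under 0.05, the threshold of the study, was reached by 43 of the 310 (13.9%) and by 1 of the 24 members. Single arrays decided the count of members, which was 0 without P15, P16 or P17, 3 without P14 or P20, and 9 without P19. The 9 were miR-1892, miR-1894-3p, miR-1895, miR-1896, miR-1982-5p, miR-3067-3p, miR-3095-3p, all lower in the Nonunion group, and miR-3069-3p and miR-3096b-3p, both higher. For these counts the share of all miRs tested without the same array is not given, and they describe single members only. Higher in the Nonunion group with this p were 30 of the 310 (9.68%) and no member. Lower were 13 (4.19%) and the same single member. With Benjamini-Hochberg adjustment over all 310, 1 miR passed (0.323%), which was no member, and the adjusted limma p of the members ran from 0.346 to 0.904. Differences of an FC of 2 or more were found for 26 of the 310 (8.39%) and for no member. No member had groups without overlap, which 12 of the 310 had (3.87%).

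Most members tested had the lower mean in the Nonunion group. A lower mean in the Nonunion group, of any size, was seen for 20 of the 24 members, compared with 126 of the 310 miRs tested (40.6%). The median difference of the members was −0.51 on the log2 scale (range −0.86 to 0.45), and that of all 310 was 0.15. Both number ranges were alike in this, with a median of −0.54 and 9 of 11 lower up to miR-1983, and a median of −0.44 and 11 of 13 lower from miR-3057 on. Without normalization the median of all 310 miRs was −0.10 and that of the members −0.69. When P17 and P18 were left out, 15 of the 24 members were higher and 9 lower in the Nonunion group, with a median of 0.01. This omission was chosen after seeing that these arrays gave the highest signals of most members, so that it had to move the members upwards. Of all 315 miRs detected on the remaining arrays, 184 were then higher and 131 lower (41.6%), with a median of 0.07.

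**Figure D2:**
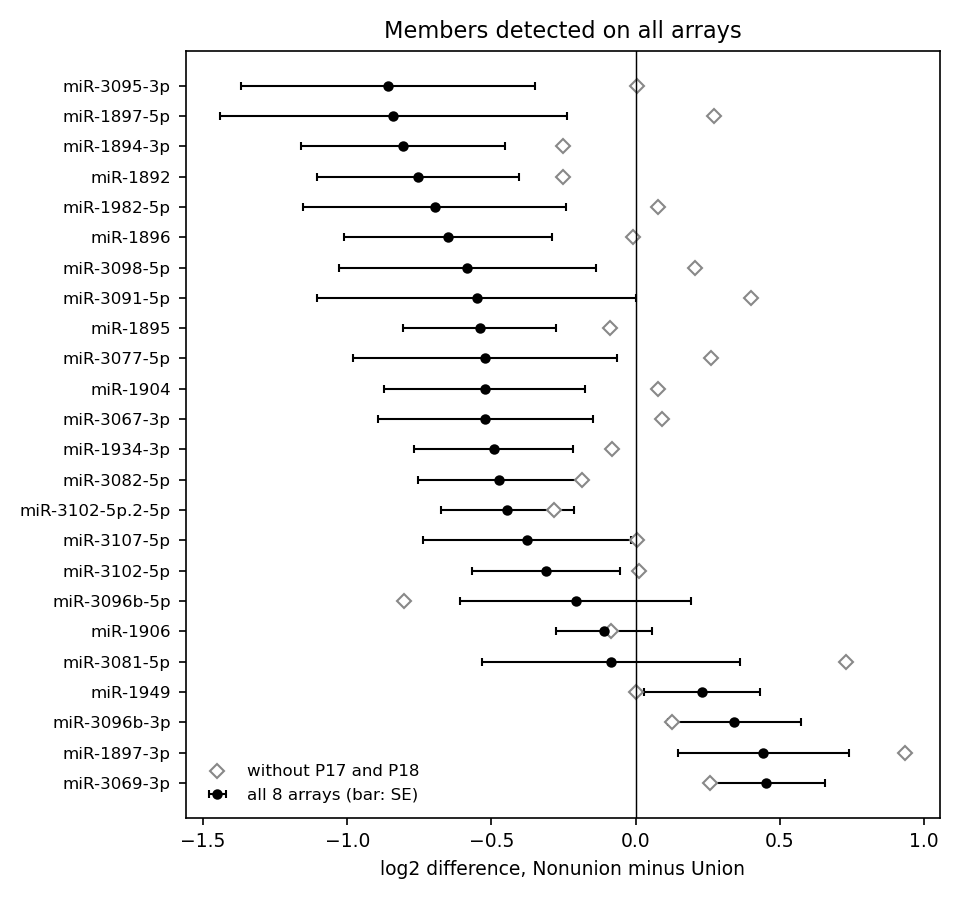
Difference in normalized log2 values, Nonunion minus Union, for the 24 members tested. Black points with bars give the limma difference and its SE over all 8 arrays, and open diamonds give the difference without P17 and P18. With all arrays 20 points lie below 0, and without P17 and P18 the diamonds lie on both sides of 0.

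The member past the threshold was miR-1894-3p. Its signal was 32.1, 43.1, 21.6 and 16.9 units on P13 to P16 and 91.4, 93.5, 29.2 and 36.0 units on P17 to P20. Only P17 and P18 lay above the Nonunion range, so that the groups overlapped. On the normalized log2 scale the difference was −0.81 (SE 0.35, limma p = 0.048, adjusted p = 0.346, exact permutation test of this miR alone p = 0.143). Without P17 and P18 it was −0.25. The unadjusted p of miR-1894-3p was no longer under 0.05 without P13, P15, P16, P17 or P18, with normexp background correction or with the spots averaged.

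MiR-1892 and miR-1895 had the same shape. MiR-1892 had 42.1, 57.2, 30.2 and 23.0 units on P13 to P16 and 103, 138, 35.4 and 50.9 units on P17 to P20 (difference −0.75, SE 0.35, exact permutation test, p = 0.114). MiR-1895 had 136, 179, 119 and 92.4 units, and 305, 319, 132 and 141.5 units (difference −0.54, SE 0.27, exact permutation test, p = 0.0857). In both, P19 and P20 fell inside the range of the Nonunion group. MiR-1896, miR-1934-3p and miR-3082-5p also had negative differences, of −0.65, −0.49 and −0.47, without passing the threshold. MiR-1896 passed it with normexp background correction (−0.28) and with the spots averaged (−1.62), miR-1934-3p without P20 (−0.66), and miR-3082-5p without P13 (−0.69), all before adjustment.

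The widest spread between arrays was found for miR-1897-5p, with 418, 522, 217 and 184 units on P13 to P16 and 1151, 1756, 233 and 313 units on P17 to P20. Its highest signal was 9.52 times its lowest. The normalized log2 signal was 8.37 ± 0.53 in the Nonunion and 9.21 ± 1.33 in the Union group (SD, n = 4, exact permutation test, p = 0.314). The spread within the Union group thus exceeded the difference between the groups. MiR-1982-5p had 114, 153, 66.7 and 54.8 units in the Nonunion and 280, 389, 79.9 and 102 units in the Union group (difference −0.70, SE 0.46). MiR-3095-3p had 47.7, 64.4, 25.5 and 22.0 units, and 127, 188, 32.0 and 40.4 units (difference −0.86, SE 0.51). Neither passed the threshold, and P19 and P20 again lay within the Nonunion range.

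This order of arrays was shared by most members. In 18 of the 24, P17 and P18 gave the 2 highest signals before normalization, against 56 of the 286 other miRs tested (19.6%). After normalization the numbers were 16 of 24 (66.7%) and 39 of 286 (13.6%). P18 was the highest array in 14 of the 24 members before and in 18 after normalization. Of the 286 other miRs, it was highest in 37 (12.9%) before and in 41 (14.3%) after normalization. P16 gave the lowest signal before normalization in 16 members, and also in 132 of the 286 other miRs (46.2%). Besides the members named above, the 18 include miR-1904, miR-3067-3p, miR-3077-5p, miR-3091-5p, miR-3098-5p (differences from −0.58 to −0.52), and miR-3081-5p and miR-1906, whose differences of −0.08 and −0.11 were the smallest of the 18.

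The signals of all 24 members came from more than 1 probe, and in each the probes gave the same sign of the difference. No spot of a member was saturated. The error that the scanner software gave for the signal was between 7.10% and 14.4% as a median over the arrays. Within the 18 members, the ratio of the highest to the lowest signal ran from 2.25 to 9.52.

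Mature sequences were at hand for 17 of these 18 members (94.4%), and their median share of G was 45.5%. For the members detected on no array, with sequences for 116 of 141 (82.3%), the median share of G was 26.1%. For the 230 other miRs tested with another order of the arrays, with sequences for 185 (80.4%), it was 22.7%. These are descriptions, and the part of base composition in the order of the arrays was not tested. The same check over all 24 members, over the 286 other miRs tested, or over the 56 of these with P17 and P18 highest is void, since sequences were found for under 80% of them (79.2%, 78.7% and 71.4%). A high share of G is thus not shown to be particular to the members.

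**Figure D3:**
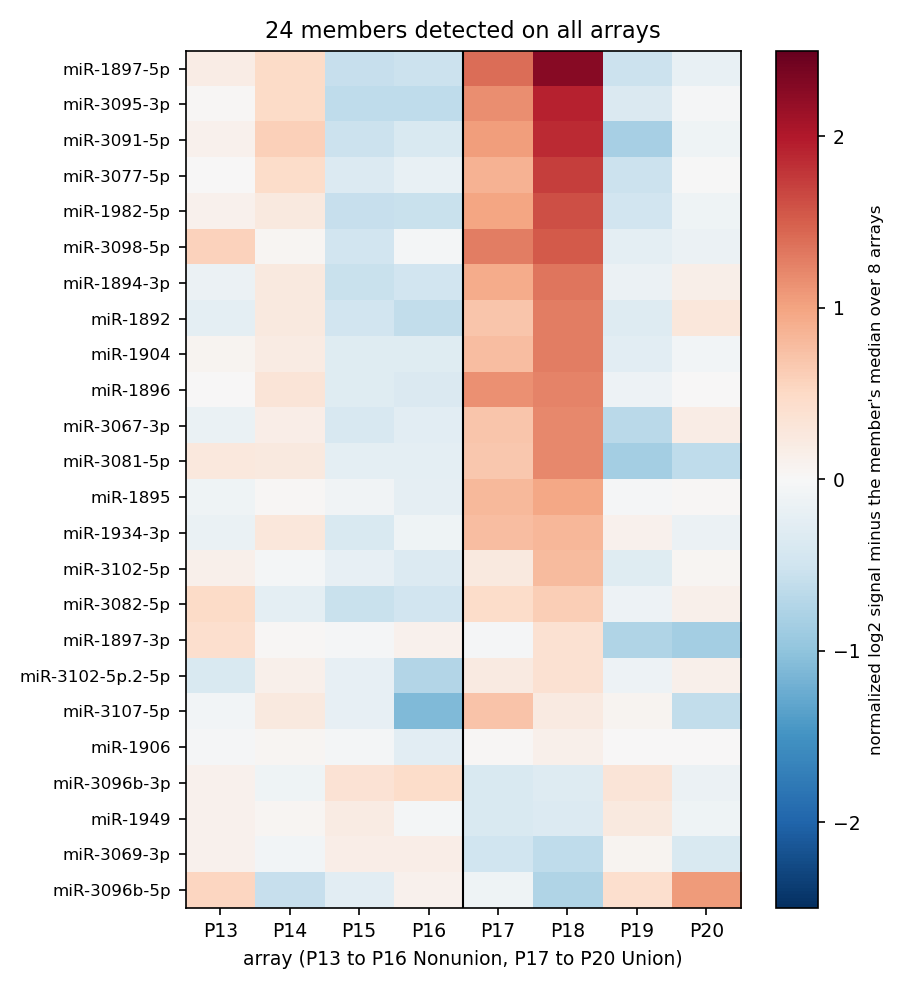
Normalized log2 values of the 24 members found on every array, each row shown as the difference from its own median over the 8 arrays, with red above and blue below the median. Rows are ordered by the value on P18, and a line parts the Nonunion arrays (left) from the Union arrays (right). Most rows are reddest on P17 and P18, and pale or blue on P19 and P20.

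The 6 remaining members had another order. MiR-1949 was among the steadiest, with 336, 344, 314 and 225 units on P13 to P16 and 288, 267, 340.5 and 281 units on P17 to P20 (difference 0.23, SE 0.20). MiR-3096b-3p likewise varied little, with 287, 275, 310 and 266 units, and 268, 230, 303 and 234 units (difference 0.34, SE 0.23). The highest signal was 1.53 and 1.35 times the lowest in these members. MiR-3069-3p had 17.1, 15.4, 16.2 and 12.3 units in the Nonunion and 15.8, 12.0, 16.1 and 10.9 units in the Union group, and the groups overlapped. Its difference of 0.45 (SE 0.20, limma adjusted p = 0.369) was the largest in favour of the Nonunion group. MiR-3107-5p, for whose gene RefSeq lists the synonym mir-486b, had 184, 255, 143.9 and 69.9 units, and 415, 243, 183 and 115 units (difference −0.38, SE 0.36). Its 2 highest arrays were P17 and P14, which were also the 2 highest of the red blood cell list. That list was written to include miR-486-5p, a relative by this synonym, so that the match may not be independent. The other two members were miR-1897-3p and miR-3096b-5p.

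Next, the arms of 1 precursor were compared. For 67 precursors more than 1 arm was on the array, 136 arms in all. No arm was detected on any array for 42 of them, 1 arm for 20 and more than 1 for 5. Of the 15 precursors with an arm detected on all arrays, 11 had no signal of any other arm on any array. These were miR-1894, miR-1934, miR-3067, miR-3069 and miR-3095, represented by the 3p arm, and miR-1982, miR-3077, miR-3081, miR-3082, miR-3091 and miR-3098, represented by the 5p arm. The 3p arm of miR-3107 was detected on 5 arrays beside its 5p arm on all 8. Both sides of the hairpin were thus found among the single detected arms.

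In 3 precursors 2 arms were detected on all arrays, and the arms had the same sign of difference in 1 of them. That 1 was miR-3102, whose 2 detected arms both come from the 5′ side. Where a 5p arm was paired with a 3p arm, in miR-1897 and miR-3096b, the signs were opposite. Each arm has its own probes, so that the size of the ratio of their signals is not a ratio of amounts, but its change from array to array can be read. MiR-1897-5p and miR-1897-3p had opposite signs. The 3p arm had 48.3, 36.0, 30.1 and 27.5 units on P13 to P16 and 44.9, 55.2, 19.5 and 17.1 units on P17 to P20. Its difference was 0.44 (SE 0.30), against −0.84 (SE 0.60) for the 5p arm. The log2 ratio of 5p to 3p was 3.11, 3.86, 2.85 and 2.75 in the Nonunion and 4.68, 4.99, 3.58 and 4.20 in the Union group. Only P19, at 3.58, lay within the range of the Nonunion group. The means of 3.14 ± 0.50 and 4.36 ± 0.62 (SD, n = 4) differed with an exact permutation p of 0.0571, or 0.171 after adjustment over the 3 pairs.

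The arms of miR-3096b also had opposite signs. MiR-3096b-5p had 22.3, 11.9, 11.9 and 11.7 units on P13 to P16 and 19.1, 11.6, 19.1 and 29.5 units on P17 to P20 (difference −0.21, SE 0.40). Its highest signal was on P20 and its lowest on P18, so that the Union group spanned the whole range. The log2 ratio of 5p to 3p was −4.36 ± 0.45 in the Nonunion and −3.77 ± 0.56 in the Union group (SD, n = 4, exact permutation test, p = 0.171, adjusted 0.257). The pair from miR-3102, both from the 5′ side of the hairpin, went together. MiR-3102-5p had 407, 389, 285 and 214 units, and 559, 625, 286 and 389 units (difference −0.31, SE 0.26). MiR-3102-5p.2-5p had 39.6, 56.3, 36.4 and 22.2 units, and 77.5, 76.9, 40.4 and 49.5 units (difference −0.45, SE 0.23). Their log2 ratio was −3.10 ± 0.27 and −2.92 ± 0.10 (SD, n = 4, exact permutation test, p = 0.343, adjusted 0.343). The 3p arm of this hairpin was detected on 1 array and the second 3p arm on none.

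**Figure D4:**
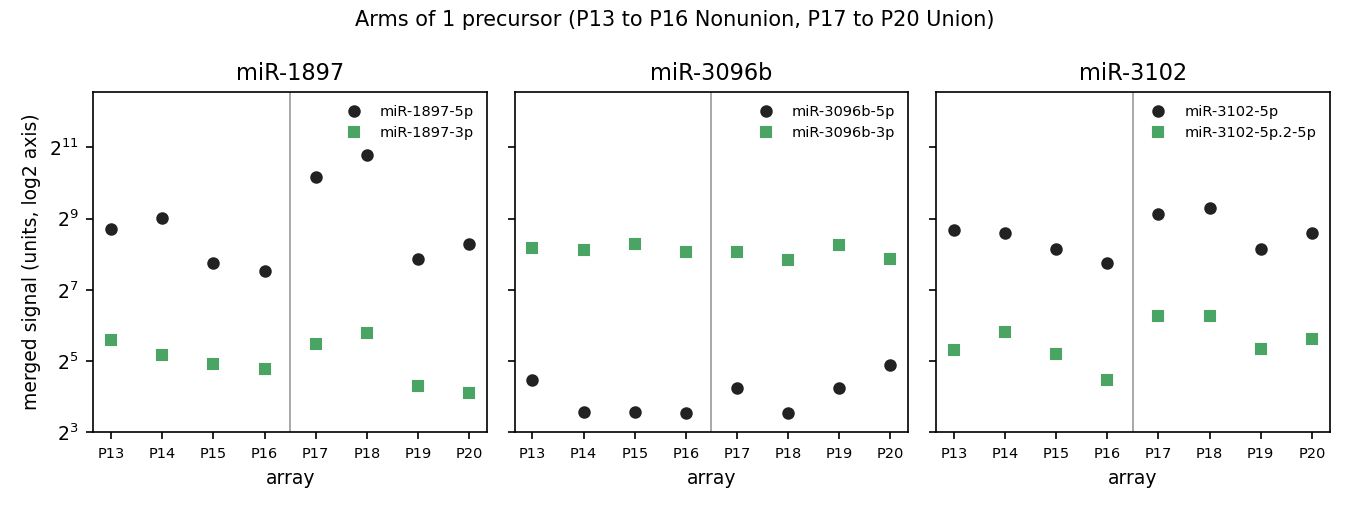
Merged signal, in units on a log2 axis, of the 2 arms detected on all arrays in each of 3 precursors, with 1 point per arm and array and a line between the Nonunion (left) and the Union arrays (right). The arms of miR-3102 follow a similar course over the arrays, but move apart from P13 to P14, where only miR-3102-5p.2-5p rises. MiR-1897-5p reaches 1756 units on P18 while miR-1897-3p stays between 17.1 and 55.2 units, and the arms of miR-3096b follow no common course. The distance between arms depends on their probes.

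Finally, 21 members were detected on some arrays but not on all. Of these, 16 were detected on more Union than Nonunion arrays, 2 (miR-1901 and miR-3092-3p) on more Nonunion arrays and 3 (miR-1907, miR-3058-3p and miR-3068-3p) on equal numbers. Of all 112 murine miRs detected on some arrays, 77 were detected on more Union (68.8%) and 24 on more Nonunion arrays (21.4%), so that the members' count was near the background. Detected on all Union but not all Nonunion arrays were miR-1967 and miR-3099-3p, each on 2 Nonunion arrays, and miR-3085-3p on 3. MiR-3058-5p and miR-3107-3p were detected on 2 Nonunion and 3 Union arrays, and miR-1931 on 1 and 2. No member was detected on all Nonunion arrays and missed on a Union array. Detection on all arrays of at least 1 group held for 27 members and for 343 of all murine miRs, against 24 and 310 on all arrays. How all murine miRs of this kind divide between the groups is not given here. Array by array, P18 detected 19 of the 21, P17 17, P13 10, P14 9, P19 8, P15 6, P20 5 and P16 none. The members' surplus of detections in the Union group lay on P17 and P18, and P19 and P20 lay within the numbers of the Nonunion arrays. Of the 91 other murine miRs detected on some arrays, P17 detected 64, P18 52, P13 and P20 46 each, P19 43, P14 39, P15 38 and P16 14. In these too, P17 and P18 were the highest arrays and P16 the lowest.

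In 10 of the 21 members no Nonunion array gave a detection, and in none did all Union arrays miss. The same held for 45 (40.2%) and 7 (6.25%) of the 112 murine miRs, again close to the members. The 10 were miR-1940, miR-1945, miR-1960, miR-1971, miR-3059-3p, miR-3075-5p, miR-3090-5p, miR-3093-3p, miR-3102-3p and miR-3113-5p. For such members only a rough bound can be given, against the lowest signal among the miRs detected on each Nonunion array. Against it, miR-3113-5p was 2.16-fold higher in the Union group, with P19, where it was undetected, set at the floor. Its signals were 11.5 units on P17, 17.2 units on P18 and 9.86 units on P20. The lowest signal came from other miRs, and this miR may go undetected at higher signals, so that 2.16 is no firm minimum. The other 9 gave no bound above 1.

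The arm left out of the list, miR-3096-5p, was the one miR tested that passed the adjustment. By quantitative PCR the study found no significant difference between the groups for this miR, so that the array values below stand alone. MiR-3096-5p, whose name marks it as a relative of miR-3096b-5p, had 41.9, 33.2, 25.3 and 26.0 units on P13 to P16 and 111, 119, 57.2 and 93.5 units on P17 to P20. All Union arrays lay above all Nonunion arrays (difference −1.37, SE 0.22, limma adjusted p = 0.0485). MiR-3096b-5p had no such separation. P19 was the lowest Union array here, as in most of the 18 members above. In contrast to the signals of those members before normalization, P19 and P20 stood above the Nonunion range.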

How the data were processed

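Total RNA from the callus of 8 mice was hybridized to the 8 arrays of 1 slide, scanned once. The authors used Agilent Feature Extraction 10.10.1.1 to extract the signals. Its output, deposited for each array, holds spot intensities, the background-corrected intensity merged for each miR, and detection calls. The authors also deposited a table of log2 values, used here as an alternative. Groups came from the sample labels and gap sizes from the study's methods. The members and the lists were chosen with earlier results of these data known.

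The log2 values of the merged intensities were quantile normalized over the 1079 murine miRs. Those detected on every array, 310 in number, were fitted with lmFit and eBayes (limma 3.58.1, R 4.3.3), Nonunion minus Union, two-sided, with Benjamini-Hochberg adjustment over all 310. Single values per array were compared by exact permutation of the 70 arrangements. Files were read with Python 3.11.15, numpy 2.4.6 and pandas 2.3.3, and figures drawn with matplotlib 3.10.9. The fit was tested on simulated data. All members detected on all 8 arrays are named, as are those detected on some arrays, and the others are counted. Alternatives were other normalizations, backgrounds, filters and tests, the authors' table and leaving out arrays. Leaving out P17 and P18 was chosen after seeing the data. Arrays give no depth, and their number limits the precision. The 57 viral miRs were not analysed here.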

Additional observations from a re-analysis of the deposited data

Results flagged for a closer look

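Over 88 groups of 4 arrays, among them the normalized signals of each tested member and the summary values of the arrays, 1 had an array set far from the other three, where chance gives about 4.4. It was the mean normalized log2 signal of the myeloid list in the Union group, which was 12.0 on P20 and between 10.01 and 10.2 on P17, P18 and P19. No member's own signal was set apart in this way.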

How the results depend on the processing

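The arrays number 4 in each group, and dim members near the detection limit have only a floor where undetected. The median difference of the members was below 0 under every other normalization, background, filter and table run for it, from −0.69 without normalization to −0.28 with normexp background correction, and from −0.65 to −0.31 when single arrays were left out. Without P17 and P18 it was 0.0084, and the difference in log2 summed signal was 0.037. Without P17, P18 and normalization the median was −0.03. The count of members with p under 0.05, 1 in the main comparison, was 0 by a t-test with unequal variances. It was 3 of 27 when a miR had to be detected on all arrays of 1 group only, against 51 of all 343 miRs. The 3 were miR-1967, miR-3069-3p and miR-3099-3p, of which miR-1967 and miR-3099-3p rest on values set at the floor. The count was 2 without P17 and P18 (miR-1897-3p, 0.94, and miR-3081-5p, 0.73). Leaving out single arrays gave counts from 0 (without P15, P16 or P17) over 3 (without P14 or P20) to 9 (without P19), and none passed adjustment. For these fits, and for the FC counts of the alternatives below, the numbers over all miRs are not given here. An FC of 2 or more, reached by 0 members in the main comparison, was reached by 3 without normalization, 3 with the filter on 1 group, 1 with spots averaged, 1 with a spot well above background required, 2 without P14 or P20 and 5 without P19. The pairs of arms with the same sign were 1 to 2, with 2 without P20. Averaging processed spots turned miR-3081-5p (0.017) and miR-3096b-5p (0.093). Leaving out single arrays moved miR-3081-5p from −0.40 to 0.27 and miR-3096b-5p from −0.51 to 0.091. Without P17 and P18, 11 of the 24 members turned: miR-1897-5p (0.27), miR-1904 (0.079), miR-1982-5p (0.077), miR-3067-3p (0.091), miR-3077-5p (0.26), miR-3081-5p (0.73), miR-3091-5p (0.40), miR-3095-3p (0.0062), miR-3098-5p (0.21), miR-3102-5p (0.010) and miR-3107-5p (0.0065). The cause was not tested. The other 12 members kept their sign under all 20 alternatives. MiR-1894-3p missed the threshold in several of these. No paired analysis was possible because the labels give the groups no shared specimen numbers, and a slide or scan block could not be fitted with 1 slide and 1 scan.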

Other observations

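A few seeds of members recur in other miRs of the array. MiR-1961 carries the seed GAGGUAG of the let-7 family, whose 9 members on the array were each detected on all arrays, while miR-1961 itself was detected on none. MiR-1928 carries GCUACAU, the seed of miR-221-3p and miR-222-3p, and was likewise detected on no array. Between members, miR-3085-3p, detected on 7 arrays, and miR-3064-5p, detected on none, share CUGGCUG.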
